A study of Caenorhabditis elegans with 22 samples.

Results

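Whole Caenorhabditis elegans of the wild-type strain N2 were kept at 20 °C in S-basal, a salt buffer without food, with 5% (v/v) ethanol, and the late stretch of that exposure is described here: the 3 libraries taken at 20 h (ethanol 20 h) set against the 3 taken at 4 h (ethanol 4 h). All 15310 genes of the 42048 in the count table that passed the filter on low counts were compared. Worms in the same buffer with 0% ethanol, 3 libraries at 20 h (control 20 h) and 3 at 4 h (control 4 h), gave the same stretch without ethanol, so that fasting and the hours in buffer are shared by both series and the ethanol is not. These 12 libraries come from a series of 22, which also holds 1 h libraries with and without ethanol and 4 libraries from time zero. Each library came from a pool of whole worms, so a level is an average over all tissues and animals, and fewer cells of a type and less RNA per cell cannot be told apart. The labels give 2 stages, L3 in the protocols and L4 in the series title, and name the libraries biological replicates without saying whether each was a culture of its own, so the p-values rest on library-to-library spread that may be technical.

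Ethanol is oxidised in the worm by alcohol and aldehyde dehydrogenases to acetate, which enters metabolism as acetyl-CoA. The intestine is the main organ of digestion, fat storage, yolk synthesis and detoxification: cytochrome P450 enzymes oxidise foreign and lipid substrates, UDP-glucuronosyltransferases and glutathione S-transferases add sugar or glutathione to them, and ABC transporters export the products. The epidermis makes the collagen cuticle, folds and cross-links its collagens in the endoplasmic reticulum, and replaces the cuticle at each molt. Without food, worms draw on lipid stores through fatty acid oxidation, lipases and autophagy.

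Depth did not set the ethanol groups apart: library totals were 13013226, 11854168 and 15302047 counts at ethanol 20 h and 13080883, 13634624 and 11806396 counts at ethanol 4 h. The summed level of the 11 intestinal markers was 11316 to 26076 CPM at ethanol 20 h and 34369 to 54260 CPM at ethanol 4 h (CPM, counts per 1000000 counts of the library size, which is first scaled by the trimmed mean of M-values, TMM). The 6 epidermal markers summed to 80.6 to 183 CPM at ethanol 20 h and 1051 to 1257 CPM at ethanol 4 h. Most of that sum came from 1 gene, the collagen gene col-19, and 2 of the 6 passed as lower and 0 as higher in the test given below. The 5 body wall muscle markers summed to 979 to 1370 CPM at ethanol 20 h and 2172 to 2539 CPM at ethanol 4 h, with 3 lower and 0 higher. Sums overlapped for the 4 pharynx muscle markers, at 170.2 to 204 CPM at ethanol 20 h and 187 to 219 CPM at ethanol 4 h. They also overlapped for the 9 oocyte and eggshell markers (3413 to 5208 CPM at ethanol 20 h and 3169 to 4650.1 CPM at ethanol 4 h) and for the 8 germ line markers (1098 to 1392 CPM at ethanol 20 h and 1131 to 1441 CPM at ethanol 4 h). The 8 neuronal markers summed to 334 to 366 CPM at ethanol 20 h and 297 to 323 CPM at ethanol 4 h. The 10 early embryo markers, 7 of them tested, summed to 18.4 to 23.6 CPM at ethanol 20 h and 12.8 to 15.6 CPM at ethanol 4 h. The 8 sperm markers, 7 of them tested, summed to 50.9 to 69.1 CPM at ethanol 20 h and 103 to 126 CPM at ethanol 4 h. At 0 counts stood 1 sperm marker in both groups, and 1 early embryo marker at ethanol 20 h and 2 at ethanol 4 h. The collagen gene col-19, known to be expressed from the molt into adulthood on, averaged 2063 ± 301 CPM at time zero (SD, n = 4). On the leading axis of the spread within groups, replicate 3 of ethanol 20 h (score 22.7) and replicate 2 of ethanol 4 h (15.0) lay on 1 side of the other ethanol libraries at these times (-16.6 to -6.1), and replicate 1 of control 20 h lay farthest out (58.3). The part of these differences in the results below was not tested beyond the values given with those libraries left out.

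Between 4 and 20 h in ethanol, 1540 genes rose and 2178 fell, which are 10.1% and 14.2% of the genes tested (edgeR quasi-likelihood F-test, Benjamini-Hochberg adjusted p under 0.05). These shares are the reference for the counts of gene lists given below. At least 2-fold changes were seen for 947 of the higher and 1353 of the lower genes, and at least 8-fold changes for 96 and 274. In 39.8% of all genes the 3 libraries of ethanol 20 h lay entirely on 1 side of the 3 of ethanol 4 h, above in 2723 and below in 3364. The median log2 fold change over all genes was 0, with the 10th and 90th percentiles at -1.09 and 0.87. The split between higher and lower genes depended on the scaling: with library totals alone, and no TMM factor, 1793 were higher and 1601 lower, and the median of all genes moved by 0.12 on the log2 scale. With replicate 3 of ethanol 20 h and replicate 2 of ethanol 4 h both left out, 1016 genes were higher and 1554 lower.

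The same hours in buffer without ethanol changed more genes: 3678 were higher and 3542 lower at control 20 h than at control 4 h, 24% and 23.1% of those tested. The difference of the steps, the ethanol log2 fold change minus the control log2 fold change, passed the threshold for 4952 genes, 2358 positive (15.4%) and 2594 negative (16.9%). That balance turned with library totals alone (2387 positive, 2157 negative) and with an offset for exon length (3236 positive, 2573 negative). These steps share no library. Of the 3718 genes that changed in ethanol, 2144 (57.7%) also had a step difference past the threshold. Among the 1540 that rose in ethanol, the difference was positive for 595, negative for 139 and not past the threshold for 806. Among the 2178 that fell, it was negative for 908, positive for 502 and not past the threshold for 768. Opposite changes with the difference past the threshold were seen for 186 genes that rose in ethanol and fell in buffer, and for 323 that fell in ethanol and rose in buffer. Changes in the same direction past both thresholds were seen for 745 higher and 1119 lower genes. Without replicate 1 of control 20 h the step difference was positive for 2248 genes and negative for 2562. The shares of buffer calls (24% higher, 23.1% lower) and of step differences (15.4% positive, 16.9% negative) are the reference for such counts of lists below. A change in ethanol given below without a step difference is not compared with buffer.

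Among called genes that reached 5 CPM in 1 of the ethanol groups and 10 counts in both, the steepest rise in ethanol was that of far-3, which encodes a fatty acid and retinol binding protein. Its level was 463, 1171 and 495 CPM in the ethanol 20 h libraries and 8.36, 4.24 and 6.37 CPM in the ethanol 4 h libraries, a log2 fold change of 6.81 ± 0.44 (adjusted p = 8.37e-10; here and below, the value after ± beside a log2 fold change or a step difference is its standard error). Replicate 2 was the highest of the 20 h libraries, and no 20 h library was near a 4 h one. In buffer far-3 stood at 14.2, 26.0 and 25.5 CPM at control 20 h and 26.4, 20.0 and 15.8 CPM at control 4 h. Its step difference was 6.73 ± 0.54. The sodium/proton exchanger gene nhx-6 was close behind, with 40.4, 27.999 and 34.7 CPM at ethanol 20 h and 0.148, 0.625 and 0.163 CPM at ethanol 4 h (6.70 ± 0.39, and 7.70 without replicate 2 of ethanol 4 h). The lectin gene clec-76 had 102, 64.8 and 93.6 CPM at ethanol 20 h against 1.41, 0.764 and 1.72 CPM at ethanol 4 h (6.07 ± 0.34). The groups lay far apart for both genes. Their step differences were 5.90 ± 2.41 for nhx-6 (adjusted p = 0.0754) and 4.69 ± 0.43 for clec-76 (adjusted p = 5.30e-08).

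The small heat shock gene hsp-12.6 belonged to the same 10, at 71.4, 168 and 121 CPM at ethanol 20 h and 3.63, 2.15 and 4.00 CPM at ethanol 4 h, a log2 fold change of 5.21 ± 0.38. It also rose in buffer (5.12 ± 0.37), and its step difference of 0.09 ± 0.45 did not pass the threshold (adjusted p = 0.905). The rest of the 10 largest rises were genes known by sequence name: F01D5.5 (6.09 ± 0.45, and 7.20 without replicate 2 of ethanol 4 h), Y47H9C.1 (6.08 ± 0.58), F47B8.10 (5.53 ± 0.39), K09C4.5 (4.96 ± 0.44), T20D4.7 (4.83 ± 0.39) and B0024.4 (4.52 ± 0.38). All 10 had their 3 ethanol 20 h libraries above all 3 ethanol 4 h libraries, which the rule that chose them required. The step difference of Y47H9C.1 (1.76, adjusted p = 0.606) did not pass the threshold. Those of F01D5.5, F47B8.10, K09C4.5, T20D4.7 and B0024.4 were positive and passed.

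Within the same limits on level, the largest fall was that of F23D12.11, with 0.131, 0.460 and 0.173 CPM at ethanol 20 h and 42.1, 35.3 and 31.6 CPM at ethanol 4 h (-7.17 ± 0.36, adjusted p = 3.00e-11). The cuticle collagen gene col-149 followed at 0.0653, 0.384 and 0.230 CPM at ethanol 20 h and 35.2, 36.8 and 20.7 CPM at ethanol 4 h (-7.08 ± 0.34). It fell in buffer too (-6.41 ± 0.33), with a step difference of -0.66 ± 0.57 (adjusted p = 0.409). The invertebrate lysozyme gene ilys-5 had 1.18, 3.84 and 1.67 CPM at ethanol 20 h and 208, 173 and 164 CPM at ethanol 4 h (-6.37 ± 0.31), with a step difference of -4.03 ± 0.37. The carboxypeptidase-like gene suro-1, needed for normal body shape and cuticle, had 1.63, 1.69 and 1.09 CPM at ethanol 20 h and 109, 101 and 108 CPM at ethanol 4 h (-6.18 ± 0.32). Here the buffer series went the other way, 32.0, 12.01 and 20.1 CPM at control 20 h and 4.27, 2.61 and 4.36 CPM at control 4 h. That made a step difference of -8.69 ± 0.43. The collagen genes col-93 (-5.68 ± 0.48) and col-94 (-5.57 ± 0.57) and the genes T10B5.8 (-6.09 ± 0.40), F11E6.3 (-5.99 ± 0.46), R03G8.6 (-5.80 ± 0.33) and Y51H7C.13 (-5.76 ± 0.30) completed the 10 largest falls. The step difference of F11E6.3 was 0.0008 (adjusted p = 0.9998), and 0.97 (0.0496) without replicate 1 of control 20 h. Those of F23D12.11, col-93, col-94, T10B5.8, R03G8.6 and Y51H7C.13 were negative and passed the threshold. Leaving out replicate 2 of ethanol 20 h enlarged the falls of 18 named genes by over 1.5-fold. In these 10 the changes without it were -7.81 for F23D12.11, -6.98 for ilys-5, -7.18 for T10B5.8 and -6.56 for col-93. Those named below had -3.49 for vit-6, -5.31 for vit-4, -8.25 for col-62, -5.64 for grd-5, -4.70 for nlp-28, -5.17 for spp-4, -4.61 for asp-14 and -4.43 for pcp-2. Among genes of lipids and fasting the values were -3.29 for acs-2, -3.69 for fat-7, -5.17 for acdh-1, -2.83 for lipl-5, -3.80 for dod-24 and -2.73 for pck-1. All 18 remained past the threshold.

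**Figure D1:**
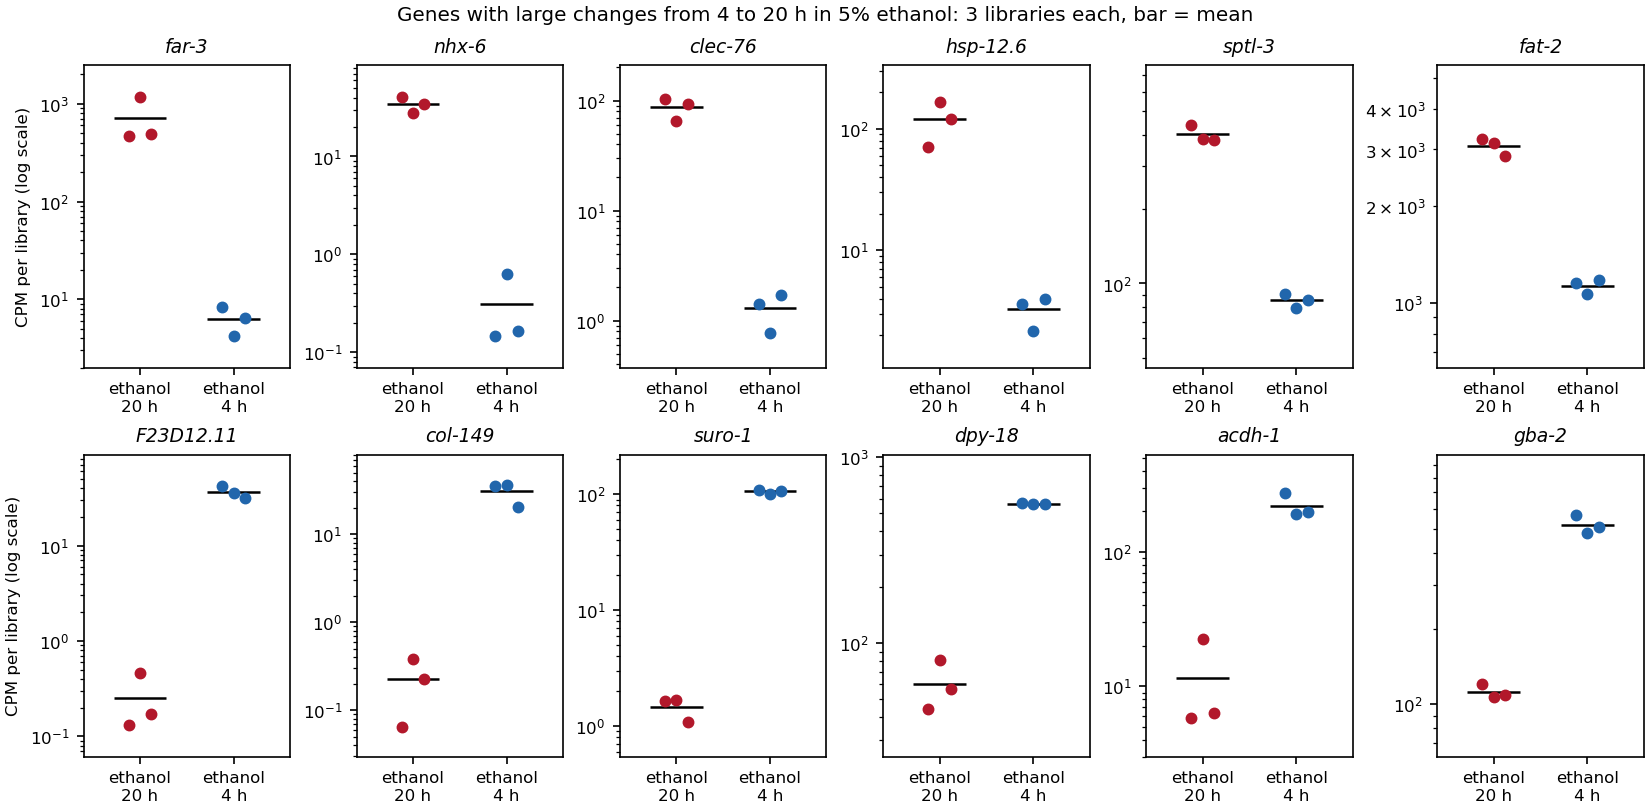
CPM on a log axis in each library for 12 genes, the 3 ethanol 20 h libraries to the left of the 3 ethanol 4 h libraries in each panel, with the group mean as a bar. The upper row holds genes that rose and the lower row genes that fell. For far-3, replicate 2 at 20 h (1171 CPM) is the highest point, and for suro-1 the 20 h libraries sit far below the 4 h libraries.

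By absolute level, the gains were led by fat-2, the delta-12 fatty acid desaturase gene, with 3244, 3149.8 and 2861 CPM at ethanol 20 h and 1148, 1062 and 1179 CPM at ethanol 4 h (1.45 ± 0.19). The aspartic protease gene asp-6 stood at 1783, 2539.7 and 2710.1 CPM at ethanol 20 h and 743, 639 and 708 CPM at ethanol 4 h (1.75 ± 0.23). The calreticulin gene crt-1, an endoplasmic reticulum chaperone, had 3667, 3318 and 4368 CPM at ethanol 20 h and 2283, 2078 and 2151 CPM at ethanol 4 h (0.80 ± 0.20). The groups did not overlap for these 3 genes. The long noncoding RNA tts-1 rose to 1979 ± 339 CPM at ethanol 20 h, against 659 ± 119 CPM at ethanol 4 h (SD, n = 3 each; 1.59 ± 0.20), and the protease gene asp-1 to 2489 ± 713 CPM at ethanol 20 h, against 1475 ± 116 CPM at ethanol 4 h (0.75 ± 0.23, adjusted p = 0.0205). The call for asp-1 was lost without replicate 2 of ethanol 20 h (0.55, adjusted p = 0.124), replicate 3 of ethanol 20 h (0.72, 0.0605) or replicate 2 of ethanol 4 h (0.69, 0.0803). The losses in CPM were led by yolk and collagen genes. Mean levels (SD, n = 3 each) were 1977 ± 1453 CPM at ethanol 20 h and 13454 ± 2909 CPM at ethanol 4 h for vit-6, and 3115 ± 1325 CPM at ethanol 20 h and 8561 ± 1793 CPM at ethanol 4 h for vit-5. The collagen gene col-124 averaged 346 ± 164 CPM at ethanol 20 h and 2779 ± 443 CPM at ethanol 4 h. For col-119 the means were 331 ± 139 CPM at ethanol 20 h and 2675 ± 384 CPM at ethanol 4 h, and for col-140 they were 253 ± 118 CPM at ethanol 20 h and 2449.6 ± 296 CPM at ethanol 4 h. All 20 h libraries lay below the 4 h libraries for these 5 genes. The step difference was positive for fat-2 (1.04, adjusted p = 0.0039) and negative for crt-1 (-0.89, 0.02). It did not pass for asp-6 (0.31, 0.486), tts-1 (-0.41, 0.276), asp-1 (0.82, 0.0609) or vit-6 (-1.09, 0.204). For vit-5 (-1.57, 0.0211), col-124 (-1.70, 0.000463), col-119 (-3.26, 1.57e-07) and col-140 (-2.18, 2.37e-05) it was negative.

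Cuticle collagen genes fell as a group in ethanol. Of 138 tested, 84 fell and 2 rose, with a median log2 fold change of -2.18 against 0 over all genes. Their summed level was 5482 CPM at ethanol 20 h and 32049 CPM at ethanol 4 h. The adult collagen gene col-19 had 77.6, 175 and 87.6 CPM at ethanol 20 h and 1239.7, 1048 and 1033 CPM at ethanol 4 h (-3.29 ± 0.25, adjusted p = 4.23e-09). All of the 20 h libraries lay far below the 4 h libraries. The collagen genes col-62 and col-7 also fell, col-62 to 0.0653, 0.844 and 0 CPM at ethanol 20 h, against 16.1, 8.34 and 12.2 CPM at ethanol 4 h (-5.46 ± 0.57), and col-7 to 0.327, 0.844 and 0.690 CPM at ethanol 20 h, against 28.5, 24.9 and 28.2 CPM at ethanol 4 h (-5.45 ± 0.31). In buffer the collagen genes divided: 43 rose and 68 fell at control 20 h relative to control 4 h, with a median of -0.85. Over this list the difference was negative for 64 of the 138 and positive for 4. For col-19 it was -2.58 ± 0.33, and for col-7 it was 0.06 ± 0.29 and did not pass the threshold. For col-62 (2.68, adjusted p = 0.311) it did not pass either. Without replicate 1 of control 20 h, 57 differences were negative and 7 positive. The epidermal marker sums given above, whose 6 genes are all collagens, were lower in the same ethanol 20 h libraries, and their part in the result was not tested. Most of those sums came from col-19, which is also counted here.

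The enzymes that modify collagens gave a mixed picture, 4 of 13 tested lower and 1 higher. The prolyl 4-hydroxylase gene dpy-18, which hydroxylates collagen prolines, had 44.5, 81.2 and 56.4 CPM at ethanol 20 h and 570.4, 561 and 563 CPM at ethanol 4 h (-3.22 ± 0.22). In buffer it was higher at 20 h, with 113, 83.2 and 82.2 CPM at control 20 h and 9.32, 9.68 and 9.42 CPM at control 4 h. This gives a step difference of -6.51 ± 0.32. The dual oxidase gene bli-3, whose product supplies the hydrogen peroxide for collagen cross-linking, fell (-2.10 ± 0.16), with 9.53, 11.6 and 9.61 CPM at ethanol 20 h and 44.9, 45.5 and 41.2 CPM at ethanol 4 h. The 20 h libraries were below the 4 h libraries for both genes.

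Of the 55 lists, the genes of molting and the apical matrix had the median step difference farthest from 0 (-5.46). Of 24 tested in ethanol, 6 fell and 0 rose, with a median of -0.42, whereas in buffer 20 rose and 0 fell, with a median of 5.08. Step differences were negative for 20 of the 24. Summed CPM of the list was 213 at ethanol 20 h and 235.2 at ethanol 4 h, and 1474 at control 20 h and 275 at control 4 h. The leucine-rich repeat protein gene sym-1, which acts in the apical matrix, stood at 1.24, 0.690 and 1.32 CPM at ethanol 20 h and 21.9, 22.8 and 21.7 CPM at ethanol 4 h (-4.32 ± 0.39), and at 92.5, 47.0 and 38.6 CPM at control 20 h and 1.92, 1.24 and 1.69 CPM at control 4 h. Its step difference was -9.52 ± 0.55. The protease inhibitor gene mlt-11, a molting gene picked out after its values were seen, had 0.131, 0 and 0.173 CPM at ethanol 20 h and 1.18, 1.46 and 1.23 CPM at ethanol 4 h, and 154, 54.8 and 28.6 CPM at control 20 h and 0.610, 0.755 and 1.26 CPM at control 4 h. Without replicate 2 of ethanol 20 h, 3 genes of the list passed the threshold as higher.

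Hedgehog-related genes, which in worms encode secreted proteins of epidermal and cuticle biology, counted 9 higher and 13 lower of 61 tested, and in buffer 34 higher and 3 lower. Among the falls were grd-5, at 1.83, 5.52 and 2.07 CPM at ethanol 20 h and 112, 80.9 and 101 CPM at ethanol 4 h (-4.98 ± 0.30), and grd-3, at 3.33, 5.75 and 2.36 CPM at ethanol 20 h and 121, 106 and 112 CPM at ethanol 4 h (-4.90 ± 0.23). Both genes lost nearly all of their signal at 20 h. The step difference was negative for grd-5 (-3.97 ± 0.38) and did not pass the threshold for grd-3 (0.32 ± 0.31). Over the list it was negative for 32 genes and positive for 5. Without replicate 1 of control 20 h it was positive for 8, and 29 genes rose and 11 fell in buffer.

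Epidermal antimicrobial peptide genes did not move together, with 6 higher and 10 lower of 23 tested. The peptide gene nlp-29, which the epidermis is known to raise after wounding and fungal infection, had 1.04, 1.76 and 1.21 CPM at ethanol 20 h and 30.3, 21.1 and 25.9 CPM at ethanol 4 h (-4.27 ± 0.37). Its relatives nlp-33 (-5.40 ± 0.31; 0.718, 0.460 and 0.173 CPM at ethanol 20 h and 22.3, 17.1 and 17.6 CPM at ethanol 4 h) and nlp-28 (-3.998 ± 0.33) fell with it. For nlp-29 and nlp-33 the step differences were -4.35 ± 0.53 and -3.97 ± 0.38, while that of nlp-28 (0.57 ± 0.56) did not pass the threshold.

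**Figure D2:**
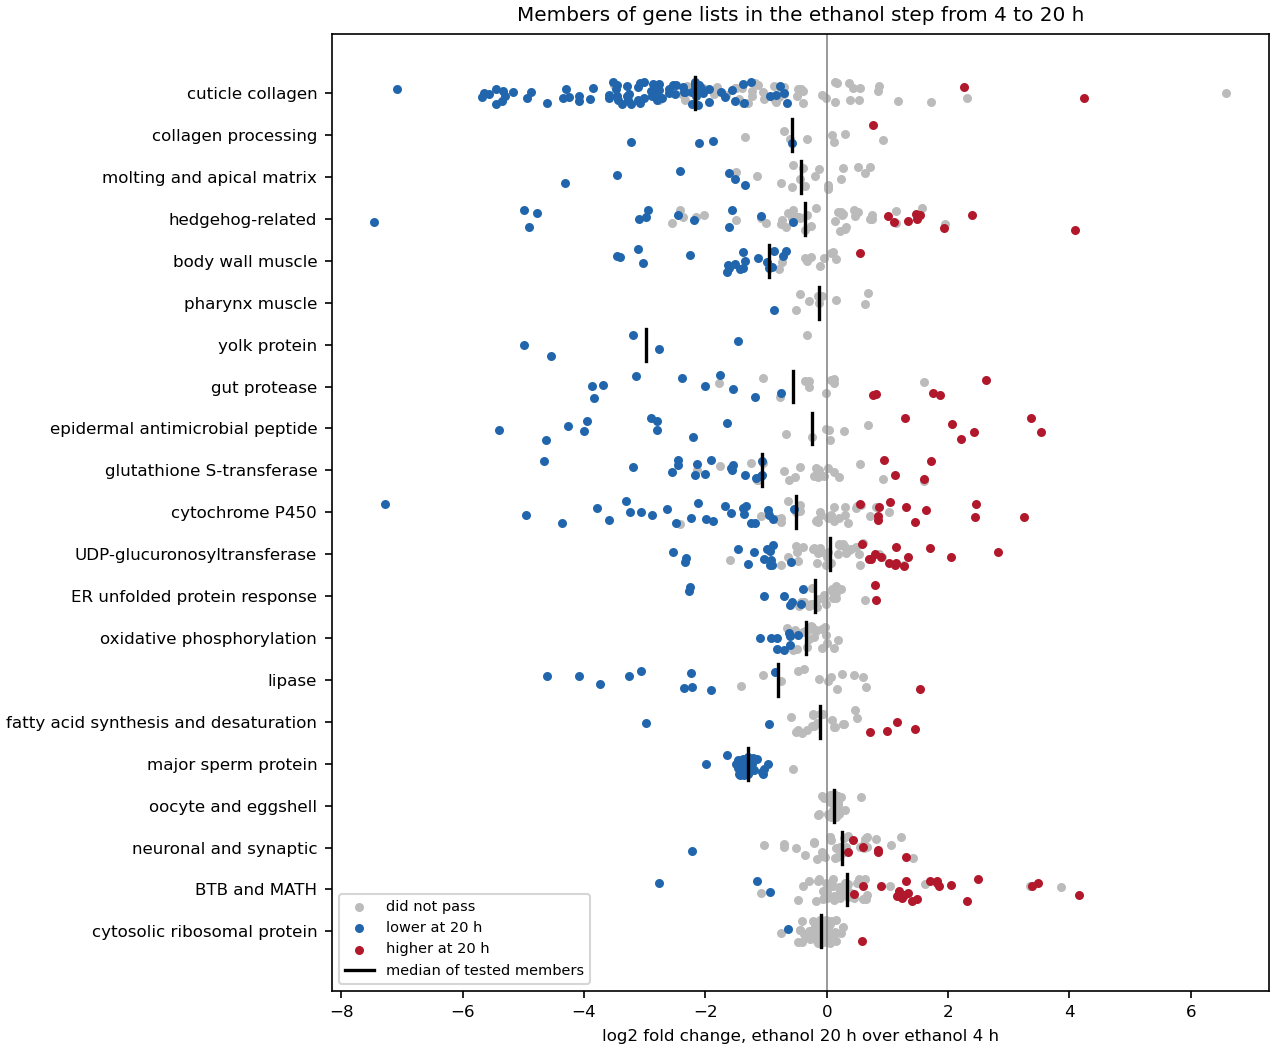
Log2 fold change of each tested gene at ethanol 20 h over ethanol 4 h for 21 gene lists, 1 point per gene, blue where it fell, red where it rose and grey where it did not pass the adjusted p of 0.05, with the list's median as a black bar and 0, the median of all genes, as a line. Medians are -2.18 for cuticle collagen, -2.98 for yolk protein and -1.30 for major sperm protein genes, and 0.12 for oocyte and eggshell genes.

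Body wall muscle genes fell in ethanol, 20 of 31 tested with 1 higher and a median of -0.95, and summed CPM of 5501 at ethanol 20 h and 11842 at ethanol 4 h. The troponin I gene tni-1 had 5.81, 4.76 and 3.80 CPM at ethanol 20 h and 62.0, 43.1 and 51.7 CPM at ethanol 4 h (-3.45 ± 0.23, adjusted p = 1.04e-09). The troponin T gene mup-2 had 19.1, 28.3 and 21.6 CPM at ethanol 20 h and 291, 232 and 212 CPM at ethanol 4 h (-3.41 ± 0.20). Every 20 h library lay below every 4 h library for both genes. In buffer, 9 genes of the list rose and 6 fell, near the shares over all genes (24% higher and 23.1% lower). Step differences were negative for 20 of 31 and positive for 0, including tni-1 (-5.50 ± 0.32) and mup-2 (-2.98 ± 0.26). Pharynx muscle genes, by comparison, had 1 of 10 called, the glutamate-gated chloride channel gene avr-15, with 5.55, 7.21 and 6.44 CPM at ethanol 20 h and 12.4, 10.6 and 12.01 CPM at ethanol 4 h (-0.87 ± 0.17), and a median of -0.13. The lists differ in size, and whether they responded differently was not tested.

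Of the 6 yolk protein genes, which the adult intestine expresses for export to oocytes, 5 fell and 0 rose. Their summed level was 19777 CPM at ethanol 20 h and 44593 CPM at ethanol 4 h. For vit-6 the libraries held 668, 3541 and 1722 CPM at ethanol 20 h and 14126, 10268 and 15968 CPM at ethanol 4 h (-2.77 ± 0.48, adjusted p = 1.80e-04). Replicate 2 was well above the other 20 h libraries and below all 4 h libraries. The steepest falls were those of vit-1, at 21.6, 35.7 and 32.5 CPM at ethanol 20 h and 976, 711 and 1147 CPM at ethanol 4 h (-4.98 ± 0.40), and vit-4 (-4.54 ± 0.50), while vit-5 fell less (-1.46 ± 0.36, adjusted p = 0.00467). The exception was vit-2, with 8748, 17565 and 16811 CPM at ethanol 20 h and 17937, 13654 and 22569.5 CPM at ethanol 4 h (-0.33 ± 0.34, adjusted p = 0.594). In buffer 4 of the 6 fell and 0 rose. The step difference was negative for 2 (3 without replicate 1 of control 20 h) and positive for 1. It was -2.74 for vit-1 (adjusted p = 0.000164) and -1.57 for vit-5 (0.0211). For vit-6 (-1.09, 0.204), vit-4 (-0.56, 0.519) and vit-2 (-1.12, 0.0837) it did not pass. The yolk protein genes are near-identical in part, so reads may be divided among them by the counting. The intestinal marker sums, which these 6 genes dominate, were lower in the same libraries. Of the 11 intestinal markers 2 were called higher and 7 lower, and the 7 include the 5 yolk protein genes that fell.

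Digestive enzymes moved both ways. Of 26 gut protease genes 5 rose and 10 fell, and their summed CPM was 7467 at ethanol 20 h and 5793 at ethanol 4 h, a sum that asp-6 and asp-1 lead. Against those, the aspartic protease gene asp-14 fell to 2.48, 11.5 and 4.89 CPM at ethanol 20 h, against 104, 85.5 and 82.3 CPM at ethanol 4 h (-3.86 ± 0.33), and the prolyl carboxypeptidase gene pcp-2 to 0.261, 0.690 and 0.230 CPM at ethanol 20 h, against 5.99, 5.14 and 5.31 CPM at ethanol 4 h (-3.83 ± 0.31). The groups did not overlap for asp-14 or pcp-2, and the step difference of pcp-2 was -6.95 ± 0.39. Lysozyme and saposin-like genes had 7 higher and 15 lower of 30, with spp-4 (-4.08 ± 0.41) and spp-23 (-4.01 ± 0.46) among the falls. The step difference did not pass the threshold for spp-4 (0.05, adjusted p = 0.959) and was negative for spp-23 (-4.62, 0.000347). C-type lectin genes, a large family of secreted sugar-binding proteins, had 21 higher and 32 lower of 133, among the falls clec-170 (-4.99 ± 0.28) and clec-48 (-3.70 ± 0.23). Without replicate 3 of ethanol 20 h, 21 lectin genes fell.

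Detoxification genes were divided in ethanol. Of 65 cytochrome P450 genes 11 rose and 26 fell, with a median of -0.50, yet the summed level of the family was 4438 CPM at ethanol 20 h and 3299 CPM at ethanol 4 h. Within the naming limits on level, the largest falls were those of cyp-35A3 and cyp-14A1. For cyp-35A3 the libraries held 0.327, 0.537 and 0.230 CPM at ethanol 20 h and 11.2, 10.7 and 11.8 CPM at ethanol 4 h (-4.95 ± 0.25). For cyp-14A1 they held 2.09, 4.91 and 2.42 CPM at ethanol 20 h and 44.3, 37.6 and 46.6 CPM at ethanol 4 h (-3.78 ± 0.24). The gene cyp-35D1, at 0 counts at ethanol 20 h, lay outside these limits and is given below. The step difference of cyp-35A3 (-1.44, adjusted p = 0.336) did not pass the threshold, and that of cyp-14A1 was negative (-3.40, 2.19e-07). A large rise outside the naming rule, picked out after its values were seen, was cyp-29A2, with 472, 569.9 and 412 CPM at ethanol 20 h and 55.3, 42.8 and 55.2 CPM at ethanol 4 h (3.25 ± 0.22). The P450 gene cyp-13A12 was high at both times, 124, 122 and 100.01 CPM at ethanol 20 h and 138, 121 and 122 CPM at ethanol 4 h, and its change of -0.14 ± 0.19 did not pass the threshold (adjusted p = 0.718). In buffer 12 P450 genes rose and 30 fell. Over this list the difference was positive for 17 and negative for 16. For cyp-13A12 it was 2.53 ± 0.66 (adjusted p = 0.00859), and 2.02 (adjusted p = 0.0568) without replicate 1 of control 20 h.

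UDP-glucuronosyltransferase genes had 14 higher and 14 lower of 62 (14 higher and 11 lower with library totals alone), and a median of 0.05. The largest named rise was ugt-63, with 21.8, 49.6 and 20.5 CPM at ethanol 20 h and 5.25, 4.31 and 3.35 CPM at ethanol 4 h (2.82 ± 0.33), and the largest named fall ugt-4, with 4.38, 2.61 and 2.88 CPM at ethanol 20 h and 15.1, 16.8 and 17.2 CPM at ethanol 4 h (-2.31 ± 0.25). Here the buffer series fell more often, 32 lower and 11 higher. The step difference was positive for 31 of the 62 and negative for 12. For ugt-63 it was 5.74 (adjusted p = 2.57e-07). For ugt-4 it did not pass the threshold (0.73, 0.115), but passed without replicate 1 of control 20 h (1.10, 0.0116). The gene ugt-16 held 271, 282 and 224 CPM at ethanol 20 h and 442, 386 and 483 CPM at ethanol 4 h (-0.75 ± 0.34, adjusted p = 0.131), and 4.58, 0.636 and 0.811 CPM at control 20 h and 7.49, 7.21 and 6.75 CPM at control 4 h. Replicate 1 of control 20 h stood apart there, and without it the step difference was 2.54 (adjusted p = 2.85e-06), against 1.07 ± 0.54 (adjusted p = 0.14) with it.

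Glutathione S-transferase genes mostly fell where they changed, 17 lower and 4 higher of 43, with a median of -1.06. The oxidative stress reporter gene gst-4 had 2.09, 3.53 and 2.53 CPM at ethanol 20 h and 16.9, 12.1 and 15.1 CPM at ethanol 4 h (-2.44 ± 0.26, adjusted p = 4.85e-07). The 20 h libraries all lay below the 4 h libraries, and the same held for gst-10 (-3.18 ± 0.30) and gst-26 (-2.44 ± 0.31). In buffer 12 fell and 4 rose. Over this list the difference was negative for 12 and positive for 3. Among 41 ABC transporter genes 5 rose and 10 fell. The P-glycoprotein gene pgp-8 fell to 1.24, 1.61 and 1.32 CPM at ethanol 20 h, against 25.3, 22.5 and 24.9 CPM at ethanol 4 h (-4.12 ± 0.30), and pgp-11 fell too (-1.63 ± 0.27). The step difference was negative for pgp-8 (-3.84, adjusted p = 4.37e-05) and did not pass the threshold for pgp-11 (-0.52, 0.292). The flavin-containing monooxygenase gene fmo-2 had 142, 189 and 132 CPM at ethanol 20 h and 309, 257 and 305 CPM at ethanol 4 h (-0.91 ± 0.33, adjusted p = 0.0522). It was at 8.86, 40.7 and 28.7 CPM at control 20 h and 0.348, 0.480 and 0.211 CPM at control 4 h. Its step difference was -7.11 ± 0.61 (adjusted p = 3.12e-08).

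The alcohol dehydrogenase gene sodh-1 had 47.8, 75.2 and 64.1 CPM at ethanol 20 h and 61.1, 59.1 and 47.3 CPM at ethanol 4 h, overlapping ranges with a change of 0.16 ± 0.18 that did not pass the threshold (adjusted p = 0.648). In buffer it rose (2.37 ± 0.19), with 1994, 3280.4 and 3162 CPM at control 20 h and 483, 596 and 549.9 CPM at control 4 h. The step difference was -2.21 ± 0.26 (adjusted p = 1.57e-06). The aldehyde dehydrogenase gene alh-1 also failed the threshold (0.28 ± 0.15, adjusted p = 0.221): 303, 294 and 317 CPM at ethanol 20 h and 249.6, 275 and 228 CPM at ethanol 4 h. Of the 17 alcohol and aldehyde metabolism genes 4 rose and 6 fell. The falls were led by alh-5, with 1.96, 5.83 and 2.70 CPM at ethanol 20 h and 42.8, 37.6 and 36.1 CPM at ethanol 4 h (-3.49 ± 0.29), and alh-9 (-2.03 ± 0.13). Without replicate 2 of ethanol 20 h, or replicate 2 or 3 of ethanol 4 h, 2 genes of the list rose. Step differences were positive for 2 and negative for 5. That of alh-5 (0.15, adjusted p = 0.807) did not pass the threshold, and that of alh-9 was negative (-1.50, 2.14e-06).

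Genes of the endoplasmic reticulum unfolded protein response, which raises chaperones when proteins misfold there, had 2 higher and 8 lower of 30 tested, with a median of -0.19, and 3 higher and 5 lower with library totals alone. The BiP chaperone gene hsp-4 had 776, 818 and 817 CPM at ethanol 20 h and 1511, 1726 and 1684 CPM at ethanol 4 h (-1.03 ± 0.22, adjusted p = 0.00108), against 229.9, 202 and 188 CPM at control 20 h and 214, 227 and 214 CPM at control 4 h. Both ethanol times lay above both control times, and the 20 h ethanol libraries below the 4 h ethanol libraries. The choline kinase gene ckb-2 fell further, with 197, 217 and 155 CPM at ethanol 20 h and 903, 849 and 983 CPM at ethanol 4 h (-2.27 ± 0.20), as did the DnaJ chaperone gene dnj-27, with 38.3, 46.2 and 40.9 CPM at ethanol 20 h and 197, 208 and 192 CPM at ethanol 4 h (-2.25 ± 0.18). Their step differences were -0.95 ± 0.30 for hsp-4, -3.41 ± 0.25 for dnj-27 and -0.74 ± 0.28 (adjusted p = 0.0473) for ckb-2. The calreticulin gene crt-1 went the other way in ethanol, as given above, and its call was lost when replicate 3 of ethanol 20 h and replicate 2 of ethanol 4 h were both left out, as were those of flp-33 and his-70. The step difference of crt-1 was negative too (-0.89, adjusted p = 0.02), so it rose more in buffer.

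Inducible heat shock genes had 2 higher and 3 lower of 12. For hsp-16.2, a small heat shock protein gene, the libraries held 2.94, 44.1 and 2.36 CPM at ethanol 20 h and 3.33, 2.99 and 4.00 CPM at ethanol 4 h, and the log2 fold change of 2.25 ± 0.90 did not pass the threshold (adjusted p = 0.0785). For hsp-70 they held 5.75, 112 and 5.29 CPM at ethanol 20 h and 10.6, 8.82 and 13.2 CPM at ethanol 4 h (1.91 ± 0.88, adjusted p = 0.133). Replicate 2 of ethanol 20 h alone carried the high value of both: without it the changes were -0.38 and -0.98, neither past the threshold. Without replicate 1 or 3 of ethanol 20 h, hsp-16.2 passed as higher (2.74, adjusted p = 0.0328, and 2.76, adjusted p = 0.0267), and without replicate 3 hsp-70 did (2.43, adjusted p = 0.046). The list then counted 4 higher genes without replicate 1 and 5 without replicate 3. The small heat shock gene hsp-12.3 rose (2.80 ± 0.34; 39.1, 87.5 and 40.1 CPM at ethanol 20 h and 10.1, 6.53 and 7.27 CPM at ethanol 4 h), and hsp-25 fell (-1.06 ± 0.15). In buffer 7 of the 12 rose and 0 fell. The step difference was negative for 6 and positive for 0. For hsp-12.3 it was -1.71 (adjusted p = 0.00669).

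None of the 24 constitutive chaperone genes was called by edgeR, with 2 higher and 0 lower at an unadjusted p under 0.05, 1 higher and 0 lower by DESeq2 and 0 of either by limma-voom. The mitochondrial chaperone gene hsp-6 stood at 341, 444 and 531 CPM at ethanol 20 h and 346, 410.4 and 379 CPM at ethanol 4 h (0.21 ± 0.39, adjusted p = 0.803). In the mitochondrial stress list 1 of 15, gpd-2, fell (-0.88 ± 0.19), below the share over all genes (14.2% lower). Oxidative stress genes had 4 higher and 4 lower of 25. The manganese superoxide dismutase gene sod-3 rose, with 3.13, 5.52 and 4.03 CPM at ethanol 20 h and 1.63, 1.74 and 1.55 CPM at ethanol 4 h (1.35 ± 0.22). So did the extracellular dismutase gene sod-4 (0.78 ± 0.18). The methionine sulfoxide reductase gene msra-1 fell (-2.87 ± 0.30), with 12.3, 15.3 and 8.69 CPM at ethanol 20 h and 109.8, 72.9 and 81.9 CPM at ethanol 4 h. The step difference did not pass the threshold for sod-3 (0.43, adjusted p = 0.44) or sod-4 (0.62, 0.0737), and was negative for msra-1 (-1.68, 0.00254).

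Both metallothionein genes rose in ethanol. The libraries held 264, 471 and 307 CPM of mtl-1 at ethanol 20 h and 102, 83.4 and 119 CPM at ethanol 4 h (1.78 ± 0.28, adjusted p = 5.81e-05), and 168, 305 and 163 CPM of mtl-2 at ethanol 20 h and 76.3, 53.3 and 73.3 CPM at ethanol 4 h (1.65 ± 0.24). Replicate 2 was the highest 20 h library for both. In buffer mtl-2 fell, to 10.2, 14.2 and 16.8 CPM at control 20 h, against 99.7, 91.5 and 91.1 CPM at control 4 h. Its step difference was 4.42 ± 0.35, while that of mtl-1 (0.62 ± 0.38, adjusted p = 0.237) did not pass. Among all 14 metal response genes 4 rose and 4 fell (4 and 2 with library totals alone), including the cadmium-responsive gene cdr-2 (-1.46 ± 0.31). Without replicate 1 or 3 of ethanol 20 h, or replicate 1 of ethanol 4 h, 2 of them fell.

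Osmolyte and trehalose genes had 3 higher and 4 lower of 17, beside 10.1% higher and 14.2% lower over all genes. The glycerol-3-phosphate dehydrogenase gene gpdh-1, which worms raise in high salt to make glycerol, had 0.196, 0.537 and 0.173 CPM at ethanol 20 h and 0.592, 0.625 and 0.572 CPM at ethanol 4 h (-1.03 ± 0.51, adjusted p = 0.164), and passed as lower without replicate 2 of ethanol 20 h (-1.65, adjusted p = 0.0447). The aquaporin gene aqp-8 fell to 1.24, 1.92 and 1.96 CPM at ethanol 20 h, against 15.5, 14.8 and 10.05 CPM at ethanol 4 h (-2.98 ± 0.23). The trehalose-phosphate synthase gene tps-1 rose (0.69 ± 0.25, adjusted p = 0.046), a call lost without any 1 of the 6 ethanol libraries (0.62 to 0.75, adjusted p 0.0623 to 0.152). The count of higher osmolyte genes was 0 without replicate 2 of ethanol 4 h, and 1 without replicate 3 of ethanol 4 h or replicate 1 or 3 of ethanol 20 h, and 2 fell without replicate 3 of ethanol 20 h. Of 14 hypoxia response genes 3 rose and 4 fell (3 and 3 with library totals alone or upper-quartile factors), the carbonic anhydrase gene cah-4 among the falls (-2.74 ± 0.20). The gene of the HIF prolyl hydroxylase, egl-9, had 14.5, 67.6 and 21.003 CPM at ethanol 20 h and 10.9, 12.99 and 13.2 CPM at ethanol 4 h (1.47 ± 0.41, adjusted p = 0.012). Replicate 2 was the highest here too, and without it the change was 0.52 (adjusted p = 0.265), while without replicate 1 of ethanol 4 h it was 1.38 (adjusted p = 0.053). Without replicate 2 of ethanol 20 h, 1 hypoxia gene rose. The step difference of egl-9 was negative (-2.29, adjusted p = 0.00464).

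Oxidative phosphorylation and glycolysis genes fell more often than they rose, where over all genes 14.2% fell and 10.1% rose. Of 30 oxidative phosphorylation genes 9 fell and 0 rose (median -0.34), with ucr-2.2, a complex III subunit gene (-1.09 ± 0.18), and asg-2, an ATP synthase subunit gene (-0.92 ± 0.14), the largest named. Of 19 glycolysis genes 6 fell and 0 rose (median -0.33), among them the aldolase gene aldo-1, with 69.9, 94.9 and 78.3 CPM at ethanol 20 h and 176, 169 and 167 CPM at ethanol 4 h (-1.08 ± 0.15), and the phosphofructokinase gene pfk-1.1 (-0.96 ± 0.31, adjusted p = 0.028). In the TCA cycle list the malate dehydrogenase gene mdh-2 (-1.19 ± 0.33, adjusted p = 0.00992) and the succinyl-CoA ligase gene sucl-1 (-0.78 ± 0.16) fell, 2 of 21, and 1 rose. These TCA cycle counts lie below the shares over all genes. The calls of pfk-1.1 and mdh-2 were lost without replicate 1 of ethanol 20 h (-0.80, adjusted p = 0.118, and -1.05, adjusted p = 0.0507), and that of pfk-1.1 also without replicate 2 of ethanol 20 h (0.0595) or replicate 1 or 2 of ethanol 4 h (0.0669 and 0.0784).

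In the glyoxylate and gluconeogenesis list 3 of 9 fell and 0 rose, and 1 fell without replicate 3 of ethanol 20 h. The isocitrate lyase and malate synthase gene icl-1 had 178, 213 and 292 CPM at ethanol 20 h and 224, 193 and 189.6 CPM at ethanol 4 h (0.17 ± 0.23, adjusted p = 0.713). The phosphoenolpyruvate carboxykinase gene pck-1 fell, with 15.2, 109 and 29.5 CPM at ethanol 20 h and 158, 151 and 135 CPM at ethanol 4 h (-1.53 ± 0.42, adjusted p = 0.0101), a call lost without replicate 3 of ethanol 20 h (-1.25, adjusted p = 0.0608). Replicate 2 held the highest 20 h level, and without it the fall was larger (-2.73, adjusted p = 1.36e-07). Its step difference was -3.95 ± 0.60 (adjusted p = 3.63e-05). The malate dehydrogenase gene mdh-1 fell as well (-0.82 ± 0.22).

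Fatty acid oxidation genes were split, 9 higher and 11 lower of 40, where buffer had 5 higher and 22 lower. Step differences were positive for 22 and negative for 6. With library totals alone in place of TMM the ethanol counts were 11 higher and 10 lower. The acyl-CoA synthetase gene acs-2, a known fasting gene, had 3.59, 10.97 and 4.78 CPM at ethanol 20 h and 41.6, 44.8 and 37.3 CPM at ethanol 4 h (-2.69 ± 0.41, adjusted p = 5.02e-05). In buffer it was at 65.3, 257 and 197 CPM at control 20 h and 4.62, 6.73 and 7.31 CPM at control 4 h. That made a step difference of -7.48 ± 0.60, or -8.08 without replicate 2 of ethanol 20 h. The carnitine palmitoyltransferase gene cpt-4 rose to 29.1, 6.60 and 15.7 CPM at ethanol 20 h, against 0.592, 0.625 and 1.23 CPM at ethanol 4 h (4.40 ± 0.42, and 3.76 without replicate 1 of ethanol 20 h), and the acyl-CoA dehydrogenase gene acdh-1 fell to 5.81, 22.5 and 6.39 CPM at ethanol 20 h, against 273, 189.8 and 199 CPM at ethanol 4 h (-4.26 ± 0.38). The groups did not overlap for these 3 genes.

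Of 25 fatty acid synthesis and desaturation genes 4 rose and 2 fell, and 3 rose and 4 fell without replicate 2 of ethanol 20 h. Besides fat-2, the delta-6 desaturase gene fat-3 rose (0.99 ± 0.20; 640.1, 828 and 643 CPM at ethanol 20 h and 363, 329 and 369 CPM at ethanol 4 h), as did the diacylglycerol acyltransferase gene dgat-2 (1.15 ± 0.23). The delta-9 desaturase gene fat-7 fell, with 23.1, 73.9 and 27.5 CPM at ethanol 20 h and 388, 275 and 315 CPM at ethanol 4 h (-2.97 ± 0.37, adjusted p = 4.81e-06). Its step difference (-0.68, adjusted p = 0.317) did not pass the threshold. Another delta-9 desaturase gene, fat-5, stood at 148, 109 and 153 CPM at ethanol 20 h and 97.5, 89.5 and 105 CPM at ethanol 4 h and did not pass the threshold in ethanol (0.49 ± 0.23, adjusted p = 0.135). In buffer fat-5 fell to 0.458, 0.212 and 0.162 CPM at control 20 h, against 18.9, 15.2 and 15.4 CPM at control 4 h, so that its step difference was 6.33 ± 0.43. Lipase genes had 1 higher and 10 lower of 24, among them lips-17 (-2.36 ± 0.25) and the lysosomal lipase gene lipl-5 (-2.24 ± 0.27), whereas in buffer 8 rose and 2 fell.

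Most autophagy genes were not called, 3 higher and 1 lower of 30, with a median of 0.05. These counts do not exceed the shares over all genes (10.1% higher and 14.2% lower). The lipase and autophagy regulator gene mxl-3 rose to 139.8, 207 and 124 CPM at ethanol 20 h, against 58.7, 53.8 and 48.4 CPM at ethanol 4 h (1.55 ± 0.16), and atg-16.2, an autophagosome assembly gene, to 181, 154 and 147 CPM at ethanol 20 h, against 62.4, 47.4 and 68.2 CPM at ethanol 4 h (1.44 ± 0.20). The transcription factor gene hlh-30 (-0.22 ± 0.35, adjusted p = 0.764) and the ubiquitin-like gene lgg-1 (-0.16 ± 0.20, adjusted p = 0.686) did not pass. Step differences were negative for mxl-3 (-1.18, adjusted p = 0.000561) and positive for atg-16.2 (1.16, adjusted p = 0.0028). In the insulin and dauer list 2 of 24 rose and 3 fell, also below the shares over all genes. The FOXO transcription factor gene daf-16 had 69.9, 75.6 and 101 CPM at ethanol 20 h and 57.3, 79.8 and 59.0 CPM at ethanol 4 h (0.33 ± 0.37, adjusted p = 0.637), and dod-24, a gene known for lower levels where daf-16 is active, fell (-3.08 ± 0.35). The steroid receptor gene daf-12 rose (0.77 ± 0.26, adjusted p = 0.034), a call lost without any 1 library other than replicate 2 of ethanol 20 h (0.69 to 0.83, adjusted p 0.0621 to 0.115).

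Sphingolipid genes had 2 higher and 3 lower of 24, below the shares over all genes (10.1% higher and 14.2% lower). The glucosylceramidase gene gba-2 had 121, 107 and 109 CPM at ethanol 20 h and 569.7, 480.5 and 508 CPM at ethanol 4 h (-2.21 ± 0.16, adjusted p = 1.68e-09), with all 20 h libraries below the 4 h libraries and a step difference of -2.81 ± 0.37. The sphingomyelinase gene asm-3 fell as well (-2.46 ± 0.19; 1.70, 3.22 and 1.61 CPM at ethanol 20 h and 11.8, 12.6 and 11.1 CPM at ethanol 4 h), and the serine palmitoyltransferase gene sptl-3, for the first step of sphingolipid synthesis, rose (2.24 ± 0.16; 441, 386 and 382 CPM at ethanol 20 h and 91.0, 79.5 and 86.1 CPM at ethanol 4 h). Of 21 one-carbon and methionine genes 4 rose and 2 fell, among them the phosphoethanolamine methyltransferase gene pmt-1 (1.06 ± 0.17) and the S-adenosylmethionine synthetase gene sams-5 (-1.31 ± 0.15).

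Sperm genes fell in ethanol, but less than in buffer. Of 31 major sperm protein genes, which encode the cytoskeletal protein of crawling sperm, 30 fell and 0 rose in ethanol with a median of -1.30, and all 31 fell in buffer with a median of -3.74. Over this list the difference was positive for 30 and negative for 0. Summed CPM of the list was 696 at ethanol 20 h and 1724 at ethanol 4 h, and 84.6 at control 20 h and 1108 at control 4 h. For msp-81 the libraries held 22.7, 31.1 and 27.7 CPM at ethanol 20 h and 85.8, 83.7 and 84.6 CPM at ethanol 4 h (-1.64 ± 0.20), and for msp-113 19.5, 18.8 and 23.5 CPM at ethanol 20 h and 57.7, 59.3 and 57.3 CPM at ethanol 4 h (-1.50 ± 0.23). Of 44 other spermatogenesis genes 19 fell and 0 rose (median -0.72), including ssq-3 (-1.57 ± 0.15) and ssq-2 (-1.44 ± 0.22), with 36 lower and 0 higher in buffer and a positive step difference for 31. The major sperm protein genes are near-identical copies, so their separate counts are uncertain.

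Oocyte, meiosis and replication genes were not called in ethanol: 0 of 28 oocyte and eggshell genes, 0 of 31 meiosis genes and 0 of 40 DNA replication and cell cycle genes, by edgeR, DESeq2 and limma-voom. At an unadjusted p under 0.05 edgeR gave 0 oocyte genes, 1 lower meiosis gene and 1 higher replication gene. Their medians were 0.12, 0.05 and 0.06. Genes of translation and protein turnover were seldom called. Of 80 cytosolic ribosomal protein genes 1 rose, rpl-24.2 (0.58 ± 0.14), and 1 fell, rpl-11.2 (-0.64 ± 0.17), with a summed level of 101749 CPM at ethanol 20 h and 108794 CPM at ethanol 4 h. None of 66 mitochondrial ribosomal protein genes was called by edgeR, with 2 higher and 1 lower at an unadjusted p under 0.05, 1 higher and 1 lower by DESeq2 and 0 by limma-voom. None of 32 proteasome genes was called by edgeR, with 0 higher and 2 lower at an unadjusted p under 0.05, 0 higher and 2 lower by DESeq2 and 0 higher and 1 lower by limma-voom. Ribosome biogenesis genes had 2 higher and 1 lower of 27, with C36E8.1 (0.62 ± 0.13) and pro-2 (-0.33 ± 0.11, adjusted p = 0.038), and translation factor genes 0 higher and 1 lower of 28, iff-2 (-0.35 ± 0.12, adjusted p = 0.0458). The call of pro-2 was lost without replicate 2 of ethanol 20 h (-0.26, adjusted p = 0.165) and without any 1 of 3 other libraries, and that of iff-2 without replicate 1 of ethanol 20 h (-0.32, adjusted p = 0.161) and without any 1 of 4 others.

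Histone genes counted 12 higher and 1 lower of 36, with a median of 0.58. The linker histone gene his-24 had 18.5, 37.3 and 28.2 CPM at ethanol 20 h and 12.5, 10.9 and 10.7 CPM at ethanol 4 h (1.30 ± 0.26), and the histone H3 gene his-70 fell (-1.14 ± 0.28). Step differences were negative for his-24 (-1.63, adjusted p = 0.00172) and positive for his-70 (1.52, adjusted p = 0.0235). The count of higher genes moved with single libraries: 5 were higher without replicate 1 of ethanol 20 h, 6 without replicate 1 or 2 of ethanol 4 h and 7 without replicate 3 of ethanol 4 h. With replicate 3 of ethanol 20 h and replicate 2 of ethanol 4 h both left out, 2 were higher. The library kit captures poly(A) RNA, and most histone mRNAs of dividing cells are known to lack a poly(A) tail. Early embryo genes had 0 higher and 1 lower of 34, sdz-8 (-1.70 ± 0.20), and 3 lower without replicate 1 of ethanol 4 h. Mid and late embryo genes had 2 higher and 1 lower of 20, where buffer had 14 higher and 1 lower. In both embryo lists the ethanol counts do not exceed the shares over all genes (10.1% higher and 14.2% lower). The nuclear receptor gene nhr-67 fell in ethanol (-2.90 ± 0.30) with a step difference of -6.72 ± 0.47, and the epidermal GATA factor gene elt-3 rose (1.04 ± 0.14; 21.9, 24.9 and 19.2 CPM at ethanol 20 h and 11.6, 10.9 and 9.64 CPM at ethanol 4 h).

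Among regulators, nuclear hormone receptor genes leaned upward, with 42 higher and 9 lower of 199 and a median of 0.22. The receptor gene nhr-137 had 12.5, 11.3 and 8.34 CPM at ethanol 20 h and 0.740, 1.46 and 1.72 CPM at ethanol 4 h (3.03 ± 0.28), and nhr-193 had 5.42, 5.60 and 5.64 CPM at ethanol 20 h and 1.18, 1.18 and 1.23 CPM at ethanol 4 h (2.21 ± 0.26). In buffer the family had 68 higher and 16 lower, or 25 lower without replicate 1 of control 20 h. For nhr-137 the step difference (0.15 ± 0.37) did not pass the threshold, and over the family it was positive for 21 and negative for 29. Both of these family counts lie below the shares over all genes (15.4% positive and 16.9% negative). With replicate 3 of ethanol 20 h and replicate 2 of ethanol 4 h left out, 25 receptors were higher.

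Genes with BTB or MATH domains, protein interaction domains found in ubiquitin ligase adaptors, had 21 higher and 3 lower of 74, and a positive step difference for 22 and a negative one for 2 (6 without replicate 1 of control 20 h). The gene math-14 rose to 21.9, 18.2 and 16.8 CPM at ethanol 20 h, against 1.78, 1.598 and 1.72 CPM at ethanol 4 h (3.48 ± 0.28), and math-27 to 126, 124 and 129.6 CPM at ethanol 20 h, against 28.3, 28.1 and 35.7 CPM at ethanol 4 h (2.04 ± 0.26). Without the pair of libraries that stood apart, 12 were higher. F-box genes, another large family of ubiquitin ligase adaptors, had 19 higher and 18 lower of 222, with fbxa-182 (2.57 ± 0.34) and fbxa-54 (2.14 ± 0.26) among the rises. Both F-box counts are below the shares over all genes (10.1% higher and 14.2% lower). Without replicate 1 of ethanol 20 h 12 F-box genes rose, and without replicate 3 of ethanol 4 h 11 fell. With library totals alone in place of TMM, 21 rose and 10 fell.

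Neuronal and synaptic genes had 6 higher and 1 lower of 40, with a median of 0.24. The BK potassium channel gene slo-1, a known target of ethanol in worm neurons, had 3.33, 2.30 and 3.63 CPM at ethanol 20 h and 1.11, 1.32 and 1.31 CPM at ethanol 4 h (1.31 ± 0.43, adjusted p = 0.0316). It also rose in buffer, to 33.5, 10.1 and 11.2 CPM at control 20 h, against 2.88, 2.20 and 2.46 CPM at control 4 h (2.87 ± 0.39). Its step difference of -1.55 ± 0.59 (adjusted p = 0.0483) was -0.77 (adjusted p = 0.179) without replicate 1 of control 20 h. The call of slo-1 in ethanol was lost without any 1 library other than replicate 2 of ethanol 20 h (1.18 to 1.36, adjusted p 0.0714 to 0.1). The voltage-gated potassium channel gene shk-1 rose (0.85 ± 0.17), and the potassium channel gene twk-18, which acts in body wall muscle, fell to 7.64, 8.13 and 5.12 CPM at ethanol 20 h, against 35.7, 31.5 and 29.5 CPM at ethanol 4 h (-2.21 ± 0.17). Step differences were negative for shk-1 (-0.66, adjusted p = 0.0356) and for twk-18 (-2.61, adjusted p = 4.64e-08). The list's count of higher genes was 1 without replicate 1 of ethanol 20 h, 2 without replicate 3 of ethanol 20 h or replicate 1 or 3 of ethanol 4 h, and 3 without replicate 2 of ethanol 4 h. In buffer 26 rose and 1 fell. The step difference was negative for 14 and positive for 0. Without replicate 1 of control 20 h, 17 rose and 3 fell in buffer, and the difference was negative for 7 and positive for 3.

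FMRFamide-like genes had 3 higher and 1 lower of 30, with flp-33 (1.11 ± 0.30) and flp-17 (-1.17 ± 0.20), where buffer had 20 higher and 0 lower. The ethanol counts do not exceed the shares over all genes (10.1% higher and 14.2% lower). Other neuropeptide-like genes had 6 higher and 4 lower of 32, including nlp-24, which fell to 1.83, 3.53 and 1.73 CPM at ethanol 20 h, against 97.0, 64.5 and 82.6 CPM at ethanol 4 h (-5.12 ± 0.50), and nlp-20 (-1.26 ± 0.24). The count of higher genes was 2 without replicate 2 of ethanol 20 h and 3 without replicate 2 of ethanol 4 h. Insulin-like peptide genes had 6 higher and 2 lower of 28, with ins-37 (1.07 ± 0.30, adjusted p = 0.0115) and ins-17 (0.56 ± 0.18, adjusted p = 0.0232) the largest rises that the naming rule reached. The count of higher genes was 2 without replicate 1 of ethanol 20 h or of ethanol 4 h, and 3 without replicate 2 of either. The call of ins-37 was lost without replicate 1 of ethanol 20 h (0.81, adjusted p = 0.0972) or of ethanol 4 h (0.98, 0.0571), and that of ins-17 without replicate 1 or 2 of ethanol 20 h or replicate 2 or 3 of ethanol 4 h (0.48 to 0.53, adjusted p 0.0712 to 0.105).

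**Figure D3:**
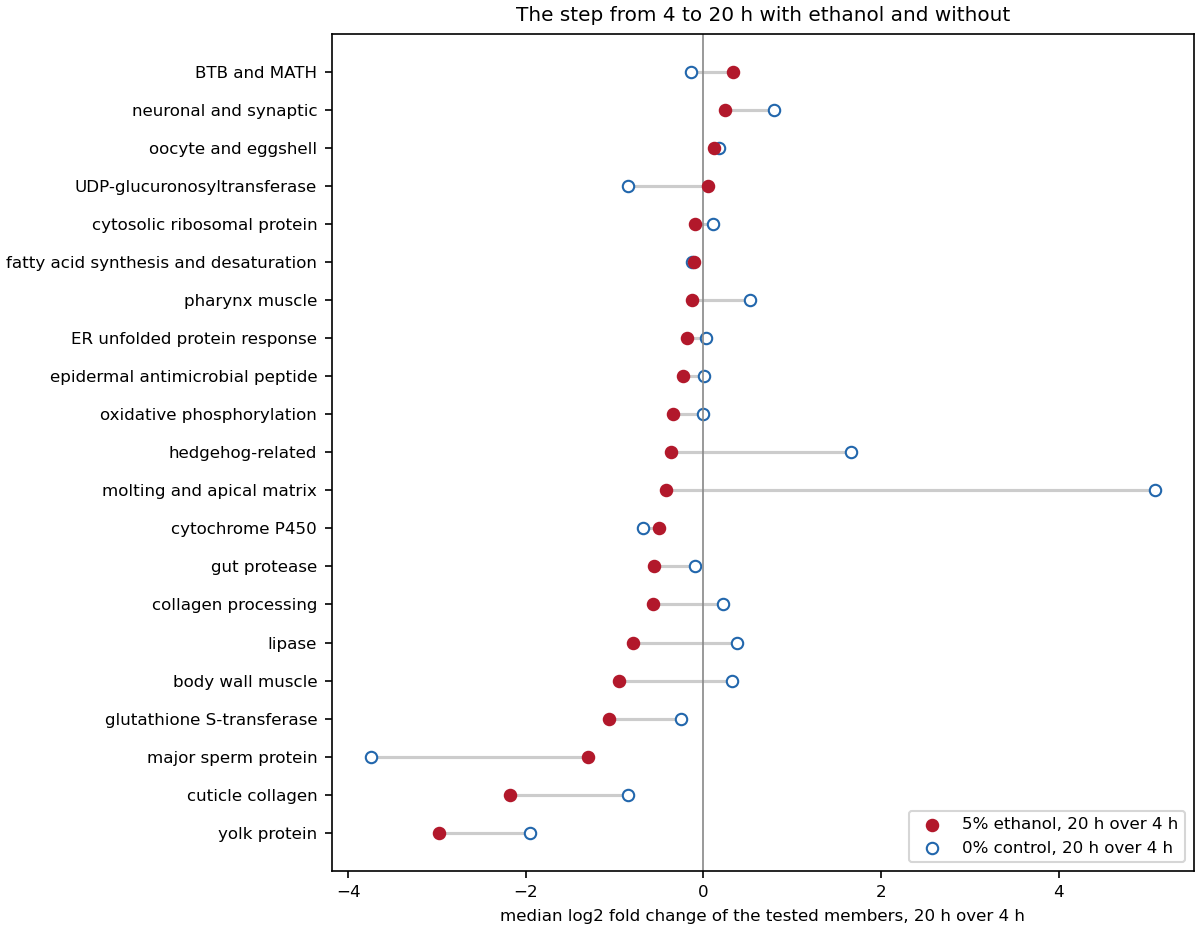
Median log2 fold change from 4 to 20 h of 21 gene lists, in ethanol (filled) and in buffer without ethanol (open), with both on the same axis. Molting genes are at -0.42 in ethanol and 5.08 in buffer, major sperm protein genes at -1.30 in ethanol and -3.74 in buffer, and cuticle collagen genes at -2.18 in ethanol and -0.85 in buffer.

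The step differences with the largest positive values were those of 6 genes. The highest was Y50D4B.4 (6.81 ± 0.24), with 131, 115 and 117 CPM at ethanol 20 h and 21.5, 18.2 and 20.9 CPM at ethanol 4 h, and 3.13, 3.18 and 2.84 CPM at control 20 h and 51.0, 61.4 and 60.2 CPM at control 4 h. Its neighbour by name, Y50D4B.3, gave 6.44 ± 0.27, and far-3, C50F7.5 (6.41 ± 0.51), fat-5 and tag-38 (5.99 ± 0.44) made up the rest. For Y50D4B.4 the ethanol libraries rose and the buffer libraries fell, and tag-38 did the same, with 52.4, 118 and 61.5 CPM at ethanol 20 h and 7.92, 6.46 and 3.43 CPM at ethanol 4 h, and 2.29, 2.19 and 1.62 CPM at control 20 h and 11.4, 9.26 and 9.56 CPM at control 4 h.

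The largest negative difference was that of the peroxidase gene skpo-2 (-10.78 ± 1.16), which was -8.73 without replicate 1 of control 20 h, where sym-1 came first (-9.05). With replicate 1 of control 20 h the highest, it held 0.588, 0.384 and 0.403 CPM at ethanol 20 h and 16.8, 15.1 and 14.4 CPM at ethanol 4 h (-5.04 ± 0.79), and 40.9, 3.18 and 4.71 CPM at control 20 h and 0.174, 0.343 and 0.351 CPM at control 4 h (5.73 ± 0.85). The genes sym-1, suro-1 and acs-2 were among the 6, together with the alkylglycerol monooxygenase gene agmo-1 (-8.60 ± 0.58) and the acyltransferase gene bus-18 (-7.93 ± 0.53). For agmo-1 the levels were 0.718, 0.384 and 0.403 CPM at ethanol 20 h and 5.48, 5.35 and 5.64 CPM at ethanol 4 h, and 19.1, 8.06 and 8.76 CPM at control 20 h and 0.261, 0.480 and 0.211 CPM at control 4 h. All 6 fell in ethanol and rose in buffer. The 12 differences kept their direction and stayed past the threshold in all 288 alternative values computed.

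Some of the genes that fell after 4 h had lower levels before it. Over the ethanol series (SD, n = 4 at time zero and 3 at each later time) gba-2 averaged 1.11 ± 0.107 CPM at time zero, 183 ± 29.3 CPM at ethanol 1 h, 519 ± 45.7 CPM at ethanol 4 h and 112 ± 7.37 CPM at ethanol 20 h. For dpy-18 the means at these times were 28.8 ± 6.15, 47.7 ± 3.29, 565 ± 4.98 and 60.7 ± 18.7 CPM, and for suro-1 they were 7.63 ± 1.00, 9.90 ± 1.54, 106 ± 4.29 and 1.47 ± 0.328 CPM. Of these genes, gba-2 and dpy-18 stood above their time zero mean at 20 h and suro-1 below it. The serine palmitoyltransferase gene sptl-3 was lowest at ethanol 4 h, with 145 ± 16.9, 114 ± 18.8, 85.5 ± 5.76 and 403 ± 32.9 CPM at the same 4 times. These means are descriptions, since the ethanol 4 h libraries enter the neighbouring steps as well.

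**Figure D4:**
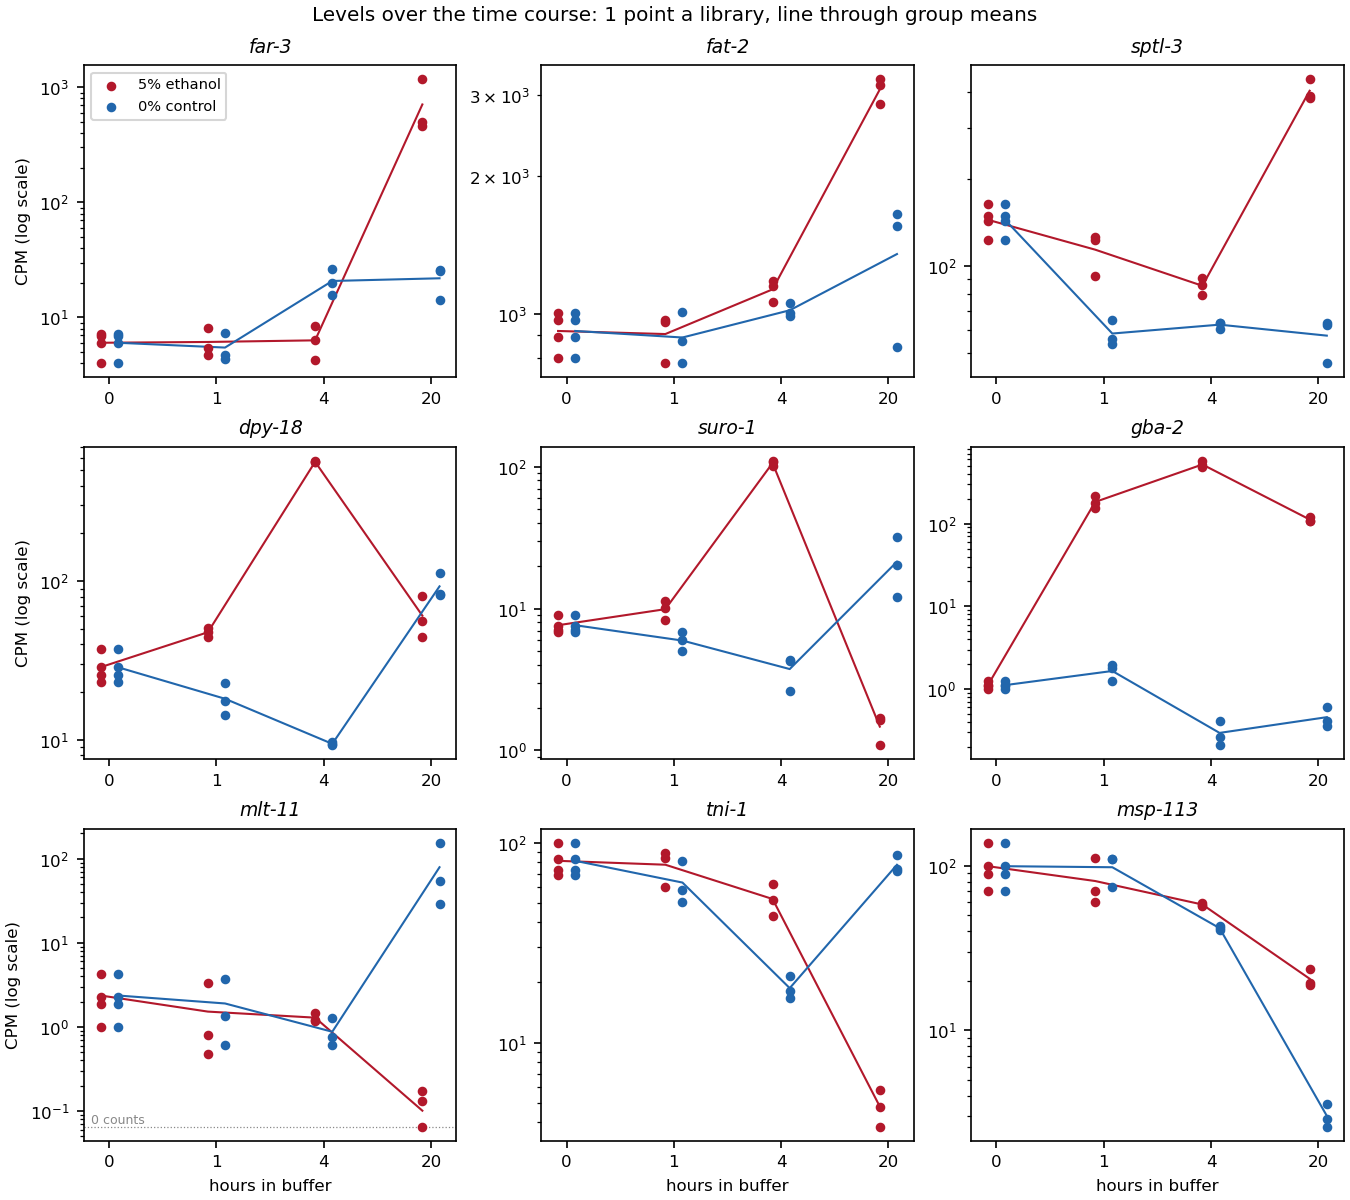
Mean CPM on a log axis over 0, 1, 4 and 20 h for 9 genes, with each library as a point, in ethanol and in buffer without ethanol, both starting from the time zero libraries. The 4 h ethanol libraries are the highest of the ethanol series for gba-2, dpy-18 and suro-1. The lines part between 4 and 20 h for mlt-11, which climbs in buffer. For far-3 the ethanol line lies below the buffer line at 4 h and far above it at 20 h.

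Some genes were counted in 1 ethanol group and at 0 in all 3 libraries of the other, and were named by the largest bounds. The neuropeptide-like gene nlp-39 had 131 counts over the ethanol 20 h libraries and 0 over the ethanol 4 h libraries, at least 38.3-fold higher with the floor set at 3 counts over the group, and Y71H2AR.2 had 101 counts at ethanol 20 h and 0 at ethanol 4 h, at least 29.6-fold higher. In the other direction cyp-35D1 had 0 counts at ethanol 20 h and 59 at ethanol 4 h, at least 22.4-fold lower, and dct-8 had 0 counts at ethanol 20 h and 32 at ethanol 4 h, at least 12.1-fold lower. Their adjusted p-values lay between 1.29e-07 for cyp-35D1 and 0.000426 for dct-8. In all, 82 of the genes that rose and 178 of those that fell had fewer than 10 counts in 1 of the groups, and their fold changes depend on the small counts.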

How the data were processed

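Messenger RNA libraries of whole worms were sequenced by the authors with a KAPA mRNA HyperPrep kit, per the labels' protocols. The deposited table holds raw counts per gene, and per the submitters' processing notes the tools were Trimmomatic 0.39, fastp 0.23.2, STAR 2.7.9a and featureCounts of Subread 2.0.3 on genome build ce10. The annotation, the strand setting and the treatment of reads with several matches were not given in sources used here. Overlapping and near-identical genes may therefore share reads. No sequences are shown, since no sequence of the build was used here.

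Counts of all 22 libraries entered a single edgeR 4.0.16 quasi-likelihood fit in R 4.3.3, with 1 mean for each of 7 groups, TMM factors and robust dispersion, after filterByExpr with at least 10 counts (15 in total) left 15310 of 42048 genes. Contrasts were ethanol 20 h against 4 h, control 20 h against 4 h and their difference, with Benjamini-Hochberg adjustment over all genes tested and a threshold of 0.05. Standard errors are the log2 fold change divided by the square root of F. CPM use TMM-adjusted library sizes, and SDs are over libraries. Library totals were 10908205 to 15302047 counts, and no pair of replicates in the 4 groups compared was identical. Alternatives were DESeq2 1.42.0, limma 3.58.1 (voom), other scalings and filters, an exon length offset, a replicate block and libraries left out.

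Genes were named by a rule: a mean of at least 5 CPM in the higher ethanol group and 10 counts in each group compared, then the 10 largest rises and falls called with separate libraries, the 5 largest gains and losses in CPM, a panel of known genes whatever their result or level, up to 2 called members a list, and the 6 largest step differences each way. At most 4 genes with fewer than 10 counts in a group were named. This gave 155 genes. The comparison, the members and the 55 gene lists were chosen with earlier results of these data known. Lists are described by counts and medians, with no test of a list.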

Additional observations from a re-analysis of the deposited data

Results flagged for a closer look

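The ethanol and buffer series shared no library at 4 and 20 h, and the direct test of the difference between their steps passed for 4952 genes. The largest positive differences (log2, ethanol step minus control step) were 6.81 for Y50D4B.4, 6.73 for far-3, 6.44 for Y50D4B.3, 6.41 for C50F7.5, 6.33 for the desaturase gene fat-5 and 5.99 for tag-38. Y50D4B.3, Y50D4B.4, C50F7.5 and tag-38 rose in ethanol and fell in buffer. For Y50D4B.3 the ethanol step was 2.48 ± 0.18 and the control step -3.96 ± 0.20, and for C50F7.5 the ethanol step was 2.96 ± 0.34 and the control step -3.44 ± 0.37.

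The largest negative differences were -10.78 for the peroxidase gene skpo-2 (-8.73 without replicate 1 of control 20 h, behind sym-1 at -9.05), -9.52 for sym-1, -8.69 for suro-1, -8.60 for agmo-1, -7.93 for bus-18 and -7.48 for acs-2. All 6 fell in ethanol and rose in buffer. For bus-18 the libraries held 2.09, 3.07 and 1.67 CPM at ethanol 20 h and 62.5, 53.2 and 74.2 CPM at ethanol 4 h, and 4.35, 8.83 and 6.73 CPM at control 20 h and 1.31, 0.275 and 0.773 CPM at control 4 h. At control 4 h all libraries of skpo-2, sym-1, agmo-1 and bus-18 were under 2 CPM.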

How the results depend on the processing

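Requiring a fold change past 2-fold in the test left 987 genes in ethanol (367 higher, 620 lower), 2471 step differences (1112 positive, 1359 negative) and 3165 genes in buffer (1702 higher, 1463 lower). With replicate 3 of ethanol 20 h and replicate 2 of ethanol 4 h both left out, an alternative with fewer samples, 1016 were higher. It also left fewer members called in some lists: higher genes numbered 9 of F-box, 1 of neuronal, 0 of osmolyte, 2 of alcohol, and 3 each of insulin-like and other neuropeptide-like genes, and lower genes 10 of F-box, 5 of endoplasmic reticulum stress, 2 each of metal and osmolyte, and 1 of glyoxylate genes. With library totals alone the ethanol split was 1793 higher and 1601 lower, 52.8% higher against 41.4%. Leaving out 1 library at a time gave 3069 to 3333 genes in ethanol (1234 to 1380 higher, 1754 to 2024 lower), 4295 to 5148 differences (1963 to 2595 positive, 2224 to 2655 negative) and 6290.0 to 7287 in buffer (3244 to 3683 higher, 3022 to 3604 lower). With the replicate block the counts were 3367, 4464 and 6654. Same-numbered ethanol libraries deviated with r of -0.0001, -0.228 and -0.162. With so few libraries a group, these values cannot tell whether same-numbered libraries belong together, and the labels do not say.

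DESeq2 called 3858 genes in ethanol, limma-voom 3777, and the other scalings, filters, the fit of only the groups compared and an exon length offset gave 3392 to 4181. Of 140 named genes called in ethanol, 125 kept the call in all 17 alternatives other than the minimum fold. Of 15 not called, 7 gained it in at least 1, among them fmo-2 with the length offset, limma-voom and only the groups compared. The direction of hsp-16.2 (-0.38 to 2.76 with 1 library left out), hsp-70 (-0.98 to 2.43) and icl-1 (-0.046 to 0.294, and -0.094 without the pair of libraries that stood apart) turned, and none of them passed in the reported fit. In the case of hsp-16.2 and hsp-70, replicate 2 of ethanol 20 h was the library whose removal turned the sign; for icl-1 it was replicate 3 of ethanol 20 h, and the cause was not tested. With library totals alone 3 constitutive chaperone genes, 1 meiosis gene and 1 mitochondrial ribosomal protein gene passed as higher, and no translation factor gene passed under the other scalings. Precision is limited by 3 libraries a group and, for low genes, by their counts.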

Other observations

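Some families outside the lists described above were picked out after their values were seen, from all gene name families with at least 10 tested members, so their counts are descriptions. The vacuolar proton pump genes, whose products acidify lysosomes and other compartments, had 14 of 19 lower and 0 higher in ethanol, with a median of -0.64, against 14.2% lower over all genes. In buffer 1 rose and 2 fell, and the step difference was negative for 12 and positive for 0. The gut subunit gene vha-6 had 51.4, 54.7 and 66.5 CPM at ethanol 20 h and 187, 178 and 164 CPM at ethanol 4 h (-1.62 ± 0.18), and vha-12 followed (-0.96 ± 0.25), while vha-18 (0.06 ± 0.21, adjusted p = 0.905) did not pass. Over the alternatives 10 to 14 were lower, other than with the minimum fold, which left 1.

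The fipr genes, named for relatives of peptides induced by fungal infection, had 17 of 22 lower and 0 higher, with a median of -2.06, and 13 to 18 lower over the same alternatives (10 with the minimum fold). For fipr-22 the levels were 3.00, 5.37 and 1.78 CPM at ethanol 20 h and 59.9, 42.7 and 57.7 CPM at ethanol 4 h (-3.999 ± 0.32). It fell in buffer as well (-4.12 ± 0.54), where 13 of the family fell and 0 rose. The family's step difference was negative for 4 and positive for 0. Transthyretin-related genes, a family of small secreted proteins, had 22 of 53 lower and 2 higher (median -0.55). In buffer 18 of them fell and 8 rose, and the step difference was negative for 12 and positive for 4. The count of lower genes was 14 without the pair of libraries that stood apart and 28 without replicate 2 of ethanol 20 h. The gene ttr-33 fell in ethanol and had a negative step difference (-3.05 ± 0.33), with 1.83, 3.30 and 2.30 CPM at ethanol 20 h and 21.2, 14.5 and 15.7 CPM at ethanol 4 h, and 6.95, 6.36 and 7.38 CPM at control 20 h and 6.19, 4.80 and 6.39 CPM at control 4 h. Galectin genes had 6 of 12 lower and 1 higher, with lec-6 (-1.69 ± 0.16) the largest fall and lec-2 (1.73 ± 0.28) the rise. The step differences of lec-6 (-0.20, adjusted p = 0.541) and lec-2 (0.54, 0.313) did not pass the threshold. In buffer 3 of the 12 fell and 1 rose. Over all genes 14.2% fell and 10.1% rose in ethanol.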
